A study of Homo sapiens with 4 samples.

Results

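Mitochondrial ribosomal protein genes were followed in ARP-1, an established human multiple myeloma cell line, and in its derivative resistant to carfilzomib, an inhibitor of the proteasome. Members were the rows of the expression table whose Ensembl ID carries a protein-coding symbol of MRPL or MRPS and a number, with pseudogenes, antisense and divergent transcripts left out. This gave 75 genes of the 15201 in the table, assigned by symbol as 48 of the large subunit (MRPL) and 27 of the small subunit (MRPS). With subunits assigned by structure, MRPS18A and MRPS30 count as large and MRPS36 as neither, which gives 50 and 24 genes. Subunits below are by symbol unless stated. MRPL23, MRPS12 and MRPS18B carry such a symbol too, but the expression table has no row for them. The groups were wild-type ARP-1 (WT, 2 libraries) and carfilzomib-resistant ARP-1 (CfzR, 2 libraries), with RNA from the bulk of each culture. Neither the dose and length of selection, nor whether the resistant cells are 1 clone, nor whether drug was present at harvest, is given in the sources used here. Separate cultures are not stated for the replicates, so p-values here reflect library-to-library spread alone, and that may be technical.

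The mitochondrial ribosome translates the few mRNAs encoded by mitochondrial DNA, which specify core subunits of the respiratory chain and of ATP synthase. Its RNA comes from the mitochondrial genome, but all of its proteins are encoded in the nucleus, made in the cytosol and imported. The small subunit binds mRNA and reads codons, and the large subunit joins amino acids and holds the exit tunnel. Part of the proteins descend from those of bacterial ribosomes and part were added during the evolution of mitochondria. Plasma cells and myeloma cells carry a heavy load of protein synthesis and secretion, which draws on mitochondrial ATP.

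Values are taken as FPKM (fragments per kilobase of transcript, scaled to depth), an assumption made because the processing notes name Cufflinks. This unit allows for transcript length and depth, but it does not give the libraries the same sum. The median over all genes was 7.50 to 7.75 FPKM in the 4 libraries. The sum over all genes was 673265 FPKM in CfzR replicate 1 and 877849 to 955284 in the other libraries. These sums differ, so a gap in FPKM between libraries is not by itself a difference in a gene's share of its library. Across genes, not independent of each other, Pearson correlations of the log2 levels lay between 0.947 and 0.983, and the lowest was between WT replicate 2 and CfzR replicate 1. All 9 plasma cell markers checked were in the table, at levels of up to 4601 FPKM. Of 4 T cell markers and 4 monocyte markers 0 were in the table, of 4 stromal markers only PDGFRB, and of 4 epithelial markers only KRT8 and KRT18, none above 6.01 FPKM. The KRT8 and KRT18 sum was 6.28 and 6.79 FPKM in WT against 2.10 and 3.70 in CfzR, and its part in the results was not tested.

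All 75 members had a mean of at least 1 FPKM and were tested. Their means over the 4 libraries ran from 3.35 FPKM for MRPL45 to 362 FPKM for MRPS24, a 108-fold range, with a median of 79.5 FPKM for the large and 41.9 FPKM for the small subunit. MRPS24, the homologue of the bacterial mRNA-binding protein S3, stood at 381 and 435 FPKM in WT replicates 1 and 2 and at 248 and 385 FPKM in CfzR replicates 1 and 2. MRPL51 led the large subunit at 336, 462, 205 and 372 FPKM in the same order of libraries, followed by MRPL53 at 309, 373, 201 and 375. In all 3, CfzR replicate 1 was the lowest library and CfzR replicate 2 lay within or beside the WT pair. The least abundant members after MRPL45 were MRPL50 and, in the small subunit, MRPS17 and MRPS31.

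No member passed the test between CfzR and WT. With limma on log2(FPKM + 1), 0 of 75 members had an adjusted p under 0.05, where 0.350% of the 13411 genes tested did (0.246% higher, 0.104% lower). Unadjusted p-values were under 0.05 for 8 members, all at a lower level in CfzR, and for 0 at a higher level, against 11.1% of all genes in either direction 5.81% in the lower and 5.32% in the higher direction. In bulk RNA, fewer cells with a transcript and less of it per cell cannot be told apart. These 8 were MRPS17, MRPL30, MRPS9, MRPS21, MRPS18A, MRPS2, MRPL43 and MRPL2. The log2 fold change was negative for 38 of 48 large-subunit members (median -0.23) and for 21 of 27 small-subunit members (median -0.29), against 52.9% of all genes tested (median -0.02). With 2 libraries a group, the smallest p that an exact permutation test could give is 0.333, so none was run on single genes.

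The 2 resistant libraries did not show the same picture. In CfzR replicate 1, 37 of 48 large-subunit members and 19 of 27 small-subunit members lay below both WT libraries, where 45.4% of all genes tested did. In CfzR replicate 2, 12 of 48 and 12 of 27 lay below both, against 35.2% of all genes, and 14 and 5 lay above both, against 36.6%. The median difference from the WT mean, on the log2(FPKM + 1) scale, was -0.47 for the large and -0.44 for the small subunit in CfzR replicate 1. In CfzR replicate 2 it was 0.01 and -0.11. The WT libraries themselves lay at -0.07 and 0.07 for the large and -0.08 and 0.08 for the small subunit. These WT values mirror each other because their mean is the reference. CfzR replicate 2 was between them for the large subunit and slightly below both for the small subunit. By median FPKM, however, the small subunit of CfzR replicate 2 (41.1) lay between WT replicates 1 and 2 (40.7 and 48.3). CfzR replicate 1 was the lowest of the 4 libraries for 53 of the 75 members, as for 38.7% of all genes.

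**Figure D1:**
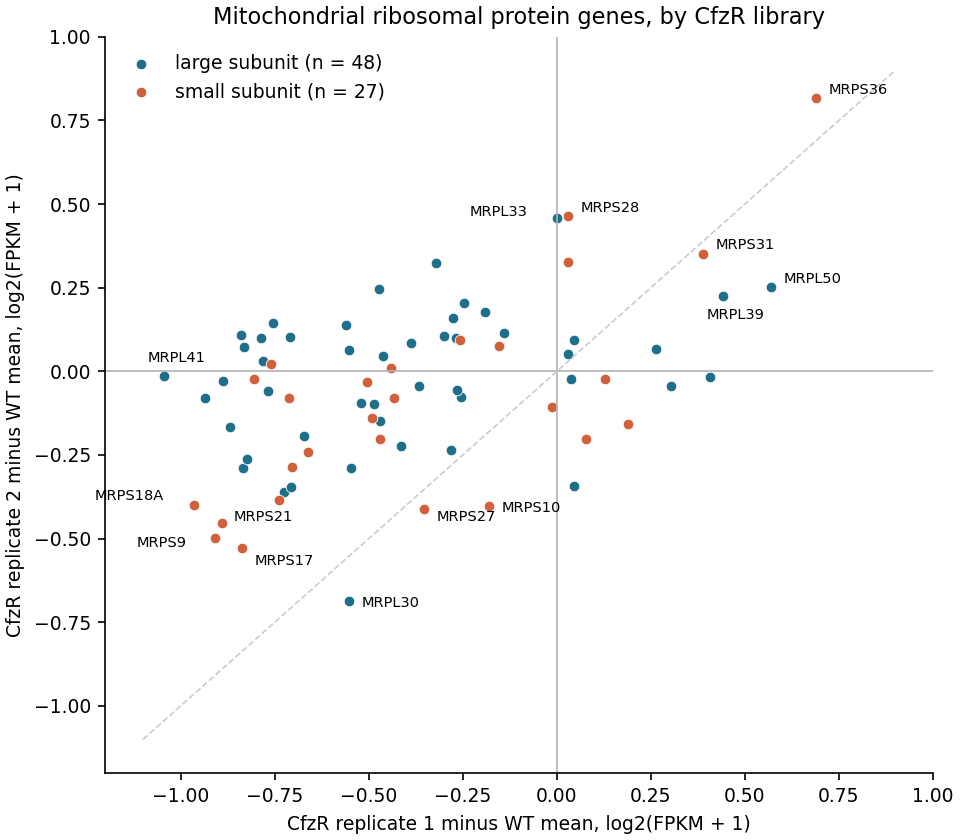
Difference of each CfzR library from the WT mean on the log2(FPKM + 1) scale, with CfzR replicate 1 on the horizontal and CfzR replicate 2 on the vertical axis, 1 point per gene (blue, large subunit; orange, small subunit; dashed line, equal differences). Most points lie left of 0, while they spread to both sides of 0 on the vertical axis; MRPS18A, MRPS9, MRPS17, MRPS21 and MRPL30 are low on both.

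Summed over members, the large subunit came to 4670 and 5152 FPKM in WT replicates 1 and 2 and to 3319 and 4864 in CfzR replicates 1 and 2. The small subunit came to 1939 and 2108 in WT and to 1375 and 1850 in CfzR. CfzR replicate 1 thus stood at 67.6% of the WT mean for the large and 67.9% for the small subunit, and CfzR replicate 2 at 99.0% and 91.4%. The sums are led by the abundant members. The ratio of the large to the small sum was 2.41, 2.44, 2.42 and 2.63 in WT replicates 1 and 2 and CfzR replicates 1 and 2, so CfzR replicate 2 had the highest ratio and CfzR replicate 1 lay between the WT libraries. As a share of all FPKM in a library, the members made up 0.719% and 0.760% in WT and 0.697% and 0.765% in CfzR, in replicate order.

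Transcript length, GC share and expression level moved with the low values of CfzR replicate 1. The part of level was not tested, and length and GC share enter only the correction described after these values. Member transcripts had a median length of 1462 bases, against 2644 bases for all genes tested, and a median GC share of 48.9%, against 48.7%. Across 12896 genes, which are not independent, the difference of CfzR replicate 1 from the WT mean had a Spearman correlation of 0.408 with length and -0.368 with GC share. For CfzR replicate 2 these were -0.0182 and -0.0919. Across the 75 members they were 0.221 and -0.501 in CfzR replicate 1, and -0.210 and -0.166 in CfzR replicate 2. With the mean level of a member the correlation was -0.544 in CfzR replicate 1 and -0.0806 in CfzR replicate 2, so the abundant members were the lower ones in CfzR replicate 1. MRPL41, with the highest GC share of the members (71.9%), also had the lowest difference in CfzR replicate 1 (-1.04) and one of -0.01 in CfzR replicate 2.

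**Figure D2:**
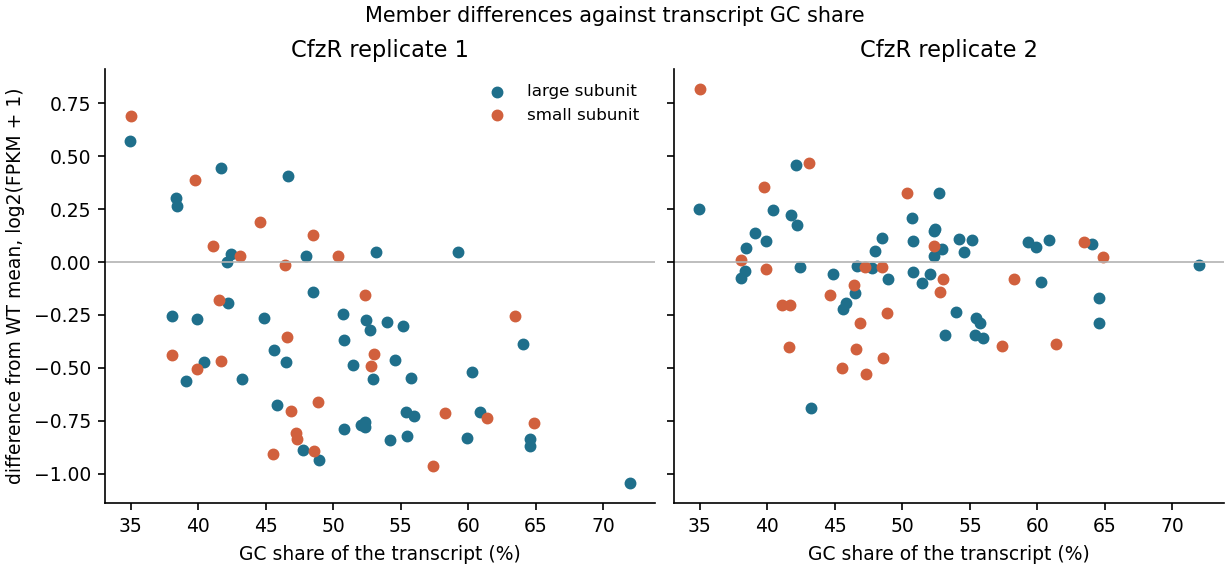
Difference of each member from the WT mean on the log2(FPKM + 1) scale against the GC share of its transcript in percent, for CfzR replicate 1 (left) and CfzR replicate 2 (right), 1 point per gene. In CfzR replicate 1 the points descend toward high GC share (Spearman -0.501); in CfzR replicate 2 they lie closer to 0 (-0.166).

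When each library's trend on length and GC share was removed, the median of CfzR replicate 1 was -0.25 for the large and -0.32 for the small subunit, and that of CfzR replicate 2 was -0.01 and -0.13. Quantile normalization, which gives all libraries the same distribution of values, brought CfzR replicate 1 to -0.14 and -0.19 and CfzR replicate 2 to 0.05 and -0.09. Scaling by trimmed means of M-values (TMM) gave -0.42 and -0.40 in CfzR replicate 1. In these 3 settings and in the values as deposited, both subunits were below the WT mean in CfzR replicate 1, and the small subunit was below it in CfzR replicate 2, while the large subunit changed sign in CfzR replicate 2. The difference between the subunits was not tested, since genes are not replicates.

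**Figure D3:**
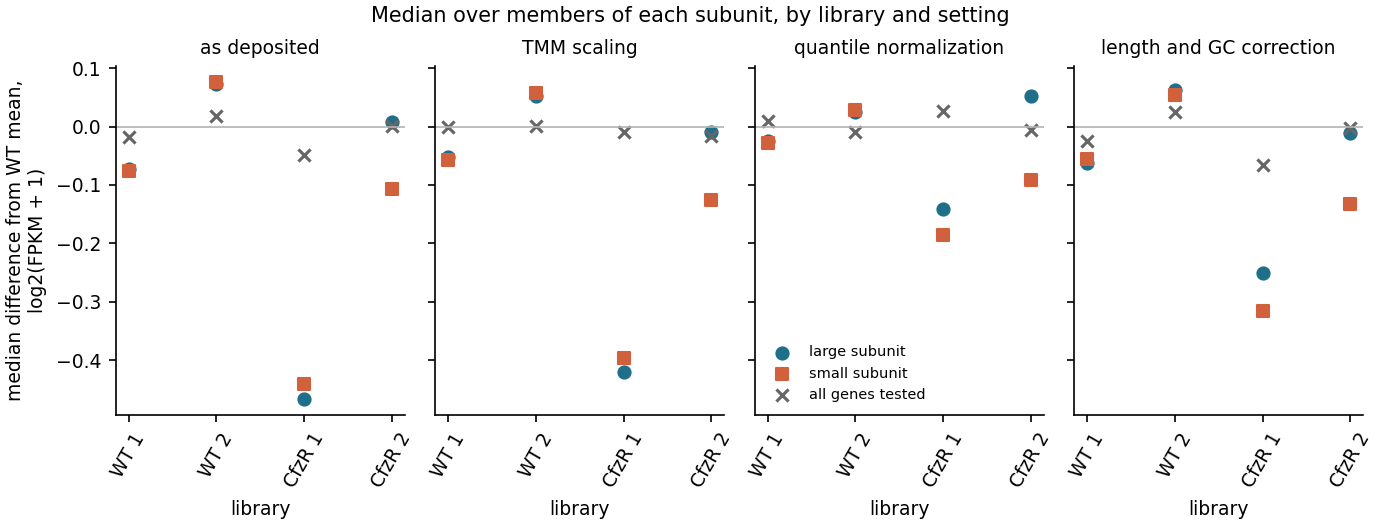
Median difference from the WT mean over the members of each subunit and over all genes tested, on the log2(FPKM + 1) scale, for each library (horizontal axis) in the values as deposited and under 3 other settings. CfzR replicate 1 lies below the WT libraries for both subunits in every panel, from -0.47 to -0.14, and the small subunit of CfzR replicate 2 lies between -0.13 and -0.09.

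Both CfzR libraries lay below both WT libraries for 11 large-subunit and 11 small-subunit members, where 22.6% of all genes tested did. Both lay above for 2 and 1 members, against 22.1%, so 25 members did not overlap between groups, against 44.7% of all genes. In the values as deposited, after TMM scaling, after quantile normalization and after the length and GC correction alike, 9 large-subunit and 10 small-subunit members were lower in this sense, and 2 and 1 were higher. These are 18.8% of the large-subunit and 37.0% of the small-subunit members in the lower direction, where 16.0% of 12896 genes kept that order under the 4 settings (15.7% in the higher direction), so the large-subunit share was near that of all genes. A further 9 members were lower in some of the 4 settings but not in all, among them MRPL10, MRPL32 and MRPS15, which were lower as deposited and overlapped after quantile normalization. This group of 19 was chosen for its order and is described without a test.

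**Figure D4:**
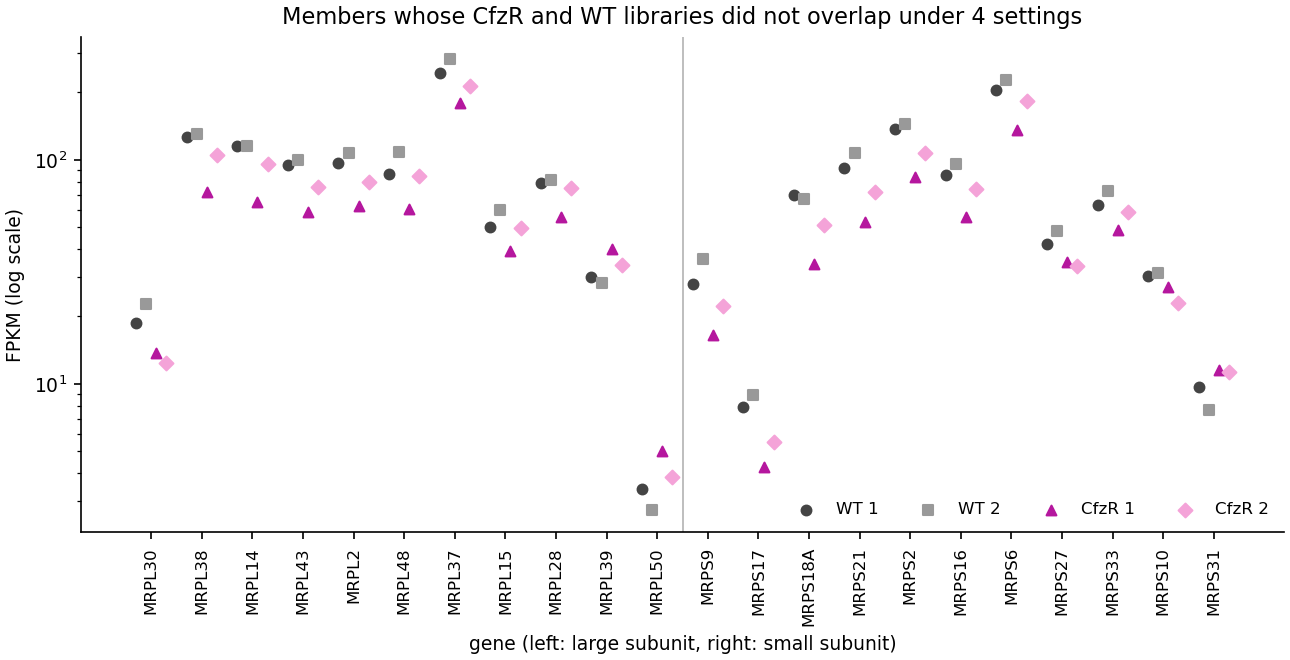
FPKM on a log axis in each of the 4 libraries for the 22 members whose CfzR and WT libraries did not overlap under any of 4 settings, large subunit left and small subunit right of the line. In 19 genes both CfzR symbols lie below both WT symbols, and in MRPL39, MRPL50 and MRPS31 both lie above.

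In the small subunit the lowest log2 fold change was that of MRPS9, the homologue of bacterial S9, a protein of the subunit's head. MRPS9 stood at 27.9 and 36.1 FPKM in WT replicates 1 and 2 and at 16.5 and 22.2 FPKM in CfzR replicates 1 and 2. Both resistant libraries were below both WT libraries, with a CfzR mean of 19.3 ± 4.04 FPKM against 32.0 ± 5.82 (SD, n = 2 each), 0.604 times the WT level (log2 fold change -0.70, SE 0.23, limma adjusted p = 0.338). MRPS17, the homologue of S17, stood at 7.85 and 8.97 FPKM in the WT pair and 4.26 and 5.51 in the CfzR pair (log2 fold change -0.68, adjusted p = 0.317). MRPS21, the homologue of S21, stood at 91.9 and 107 FPKM in the WT pair and 53.0 and 72.2 in the CfzR pair (log2 fold change -0.67, adjusted p = 0.362). In all 3 the groups did not overlap, CfzR replicate 1 was the lowest library and CfzR replicate 2 the next, with differences from the WT mean of -0.50, -0.53 and -0.45 in CfzR replicate 2. In the GENCODE 29 annotation MRPS17 shares exon sequence with NIPSNAP2 on the same strand, so their reads could be split either way. The same limit holds for 10 members in all, among them MRPS24, MRPS6, MRPS16, MRPL28, MRPL33 and MRPL53.

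MRPS18A and MRPS18C are paralogues that both descend from bacterial S18, and the product of MRPS18C takes the S18 position in the small subunit, while that of MRPS18A is found in the large subunit in the solved structures. MRPS18A (chromosome 6, 43671303 to 43687791, minus strand, GRCh38) stood at 69.5 and 66.6 FPKM in the WT pair and 34.4 and 51.4 FPKM in CfzR. The CfzR mean was 42.9 ± 12.02 against 68.1 ± 2.09 FPKM (SD, n = 2 each; log2 fold change -0.68, SE 0.24, limma adjusted p = 0.369). MRPS18C (chromosome 4, 83455932 to 83469735, plus strand) stood at 31.5 and 32.9 FPKM in the WT pair and 23.5 and 32.4 in the CfzR pair (log2 fold change -0.22, SE 0.22, adjusted p = 0.714). The groups thus did not overlap for MRPS18A and overlapped for MRPS18C, which lay at 0.01 from the WT mean in CfzR replicate 2. The difference between the paralogues was not tested.

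MRPS2, the homologue of S2, stood at 137 and 145 FPKM in the WT pair and 84.2 and 108 in the CfzR pair (log2 fold change -0.56, SE 0.22, adjusted p = 0.424). The abundant MRPS6, homologue of S6, stood at 205 and 227 FPKM in the WT pair and 136 and 182 in the CfzR pair (log2 fold change -0.45, adjusted p = 0.530). MRPS16, MRPS27, MRPS33 and MRPS10 had the same order with log2 fold changes of -0.49, -0.38, -0.34 and -0.29. Of these, MRPS10 and MRPS27 were lower in CfzR replicate 2 (23.0 and 33.7 FPKM) than in CfzR replicate 1 (27.0 and 35.1). MRPS34, among the most abundant members, stood at 253 and 274 FPKM in the WT pair and at 155 and 268 in CfzR, so that its groups overlapped (log2 fold change -0.37, adjusted p = 0.658).

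In the large subunit MRPL30, the homologue of bacterial L30, had the lowest log2 fold change. It stood at 18.7 and 22.6 FPKM in the WT pair and at 13.7 and 12.4 in CfzR, and the resistant libraries lay close together and below both WT libraries (20.7 ± 2.76 against 13.1 ± 0.934 FPKM, SD, n = 2 each; log2 fold change -0.62, SE 0.20, limma adjusted p = 0.324). Unlike in most members, CfzR replicate 2 was the lower of the pair. The length and GC correction moved MRPL30 away from 0, to -0.72 (adjusted p = 0.172), but brought 13 of the 19 lower members nearer to 0.

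MRPL38 stood at 126 and 130 FPKM in the WT pair and 71.5 and 105 in the CfzR pair (log2 fold change -0.56, SE 0.25, adjusted p = 0.462). MRPL14, the homologue of L14, stood at 115 in both WT libraries and at 64.6 and 95.7 FPKM in the CfzR pair (log2 fold change -0.54, adjusted p = 0.480). MRPL2, the homologue of L2, a protein near the peptidyl transferase centre, stood at 96.9 and 107 FPKM in the WT pair and 62.0 and 80.0 in the CfzR pair (log2 fold change -0.53, adjusted p = 0.449). In these 3 genes the groups did not overlap and CfzR replicate 1 was the lowest library. MRPL48, MRPL37, MRPL15 and MRPL28 had the same order, with log2 fold changes of -0.43, -0.42, -0.31 and -0.31. After the length and GC correction MRPL38 was at -0.41 and MRPL14 at -0.35, and of the MRPS genes MRPS18A was at -0.48 and MRPS2 at -0.40.

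MRPL43 (chromosome 10, 100969458 to 100987515, minus strand, GRCh38) stood at 94.4 and 100.2 FPKM in the WT pair and 58.4 and 75.6 in the CfzR pair (log2 fold change -0.54, SE 0.22, adjusted p = 0.428), or -0.35 once corrected for length and GC share. It shares exon sequence on the opposite strand with TWNK, the helicase that unwinds mitochondrial DNA. TWNK stood at 12.1 and 15.0 FPKM in the WT pair and 6.63 and 7.84 in the CfzR pair (log2 fold change -0.82, SE 0.21, adjusted p = 0.222). Whether counting used strand is not given in the sources used here, so reads of the shared sequence cannot be told apart between the genes. In all, 23 members share exon sequence with an opposite-strand gene of the table.

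MRPL12, which forms the stalk that recruits elongation factors, stood at 167 and 216 FPKM in the WT pair and 104 and 169 in the CfzR pair (log2 fold change -0.52, SE 0.30, adjusted p = 0.545). MRPL11, at the base of that stalk, stood at 104 and 129 FPKM in the WT pair and 66.7 and 124 in the CfzR pair (log2 fold change -0.34, adjusted p = 0.690). MRPL58, a peptidyl-tRNA hydrolase built into the large subunit, stood at 40.7 and 48.8 FPKM in the WT pair and 31.5 and 41.6 in the CfzR pair (log2 fold change -0.29, adjusted p = 0.633). In each of these CfzR replicate 1 was below both WT libraries and CfzR replicate 2 lay between them. MRPL41 had the widest gap within the resistant pair on the log2 scale (1.03), with 292 and 353 FPKM in WT against 155 and 318 in the CfzR pair (log2 fold change -0.53, SE 0.37, adjusted p = 0.597).

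The 3 members that were higher in both resistant libraries had mean levels below the median of their subunit, and none passed the test. MRPL39 stood at 29.9 and 28.2 FPKM in the WT pair and 39.8 and 34.1 in the CfzR pair (log2 fold change 0.33, SE 0.19, adjusted p = 0.549). MRPL50 stood at 3.41 and 2.74 FPKM in the WT pair and 5.04 and 3.84 in the CfzR pair (log2 fold change 0.41, adjusted p = 0.542), or 0.11 once corrected for length and GC share. MRPS31 stood at 9.72 and 7.62 FPKM in the WT pair and 11.6 and 11.3 in the CfzR pair (log2 fold change 0.37, adjusted p = 0.535). All 3 belong to the proteins that were added in mitochondria. Their transcripts have GC shares of 41.7%, 35.0% and 39.7%, below the members' median of 48.9%.

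Other members with positive log2 fold changes overlapped between groups. MRPL33, the homologue of L33, stood at 145 and 139 FPKM in the WT pair and 142 and 196 in CfzR, so only CfzR replicate 2 was above the WT pair (log2 fold change 0.23, adjusted p = 0.724). MRPS28 did likewise, with 28.0 and 31.2 FPKM in the WT pair and 30.2 and 41.1 in the CfzR pair (log2 fold change 0.25, adjusted p = 0.680). MRPS11, homologue of S11, stood at 40.0 and 26.5 FPKM in the WT pair and 33.2 and 41.1 in the CfzR pair (log2 fold change 0.18, adjusted p = 0.789). MRPL45 stood at 2.82 and 3.25 FPKM in the WT pair and 4.35 and 2.98 in the CfzR pair (log2 fold change 0.20, adjusted p = 0.763), and its level is uncertain because the table also holds its close copy MRPL45P2.

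MRPS36 had the largest positive log2 fold change of the members, and 1 WT library set it. It stood at 30.0 FPKM in WT replicate 1 and 7.35 in WT replicate 2, and at 25.0 and 27.3 FPKM in the CfzR pair (log2 fold change 0.75, SE 0.54, adjusted p = 0.611). Without WT replicate 2 the log2 fold change was -0.19 (adjusted p = 1.00), and without WT replicate 1 it was 1.70 (adjusted p = 0.00252). The product of MRPS36 is now known as a subunit of the 2-oxoglutarate dehydrogenase complex and not of the ribosome, although its symbol falls under the rule. A processed pseudogene, MRPS36P1, is also in the table, at 9.78, 5.76, 7.20 and 12.9 FPKM in WT replicates 1 and 2 and CfzR replicates 1 and 2.

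By a list of members with a bacterial homologue, 13 of 14 such genes of the small subunit had negative log2 fold changes (median -0.36), and 8 of the 14 did not overlap with WT in the lower direction, where 52.9% and 22.6% of all genes tested did so. Of the other 13 small-subunit members 8 were negative (median -0.06), and 3 did not overlap in the lower direction, a share near that of all genes. Leaving out CfzR replicate 1, the medians were -0.19 and -0.02. When MRPS18A and MRPS28, which are related to bacterial S18 and S1, were moved to the first set after the data were seen, 14 of 16 and 7 of 11 were negative, with medians of -0.36 and -0.06. In the large subunit the corresponding sets had 23 of 28 (median -0.21) and 15 of 20 (median -0.30) negative. In CfzR replicate 2 both large-subunit sets had a median of 0.01. The list was written with earlier results of these data known, and the difference between the sets was not tested.

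**Figure D5:**
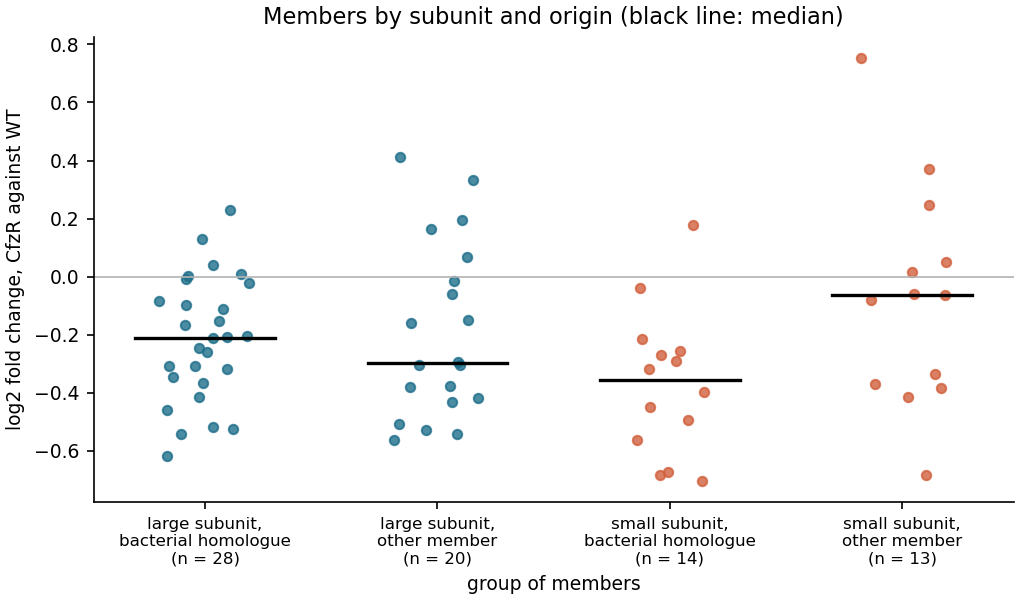
Log2 fold change of CfzR against WT for each member, by subunit and by whether the protein has a bacterial homologue on the list (black lines, medians). The small-subunit set with bacterial homologues lies lowest, with a median of -0.36 and 13 of 14 genes below 0.

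Proteins of the mitochondrial ribosome with other symbols lay in the same range. Of 5, 0 passed the test, with 0 at an unadjusted p under 0.05, and 4 had negative log2 fold changes (median -0.37). Among all genes tested, 11.1% had such an unadjusted p and 52.9% were negative. AURKAIP1, a small-subunit protein, stood at 336 and 446 FPKM in the WT pair and 198 and 345 in the CfzR pair (log2 fold change -0.56, adjusted p = 0.554). PTCD3, which also sits in the small subunit, stood at 16.1 and 17.0 FPKM in the WT pair and 18.4 and 15.1 in the CfzR pair (log2 fold change 0.01, adjusted p = 0.993). In CfzR replicate 1 the median of the 5 was -0.63 and in CfzR replicate 2 it was -0.13.

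None of the genes listed for building and running the mitochondrial ribosome passed the test either. Their transcripts were longer than those of the members, with medians of 2235 bases for assembly and 2734 for translation factors, and the part of length in their values was not tested. Of 30 genes of assembly and rRNA modification 0 passed, 1 was higher at an unadjusted p under 0.05, and 18 were negative (median -0.06). For this list and the next, the shares over all genes tested were 11.1% at such a p (5.32% higher) and 52.9% negative. The pseudouridine synthase RPUSD4 stood at 35.3 and 46.4 FPKM in the WT pair and 27.8 and 30.5 in the CfzR pair (log2 fold change -0.46, adjusted p = 0.485). RCC1L, which acts with it in modification of the large rRNA, stood at 57.8 and 62.8 FPKM in the WT pair and 80.9 and 89.5 in the CfzR pair (log2 fold change 0.49, SE 0.20, adjusted p = 0.430), and both resistant libraries were above both WT libraries. Of 19 translation factors and mRNA-handling genes 0 passed, 0 had an unadjusted p under 0.05 and 14 were negative (median -0.11). TSFM, the exchange factor of the elongation factor TUFM, had the lowest log2 fold change (-0.44, adjusted p = 0.564) and GUF1, a ribosome-bound GTPase, the highest (0.32, adjusted p = 0.651).

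Of 18 measured mitochondrial aminoacyl-tRNA synthetases and amidotransferase subunits, which charge the organelle's tRNAs, 0 passed, 0 had an unadjusted p under 0.05 and 7 were negative (median 0.02). Over all genes tested, 11.1% had such an unadjusted p and 52.9% were negative, which also serves for the lists that follow here. Their median in CfzR replicate 1 was 0.07, where that of the ribosomal members was -0.46, and their median transcript length was 2765 bases. GATB stood at 10.3 and 11.6 FPKM in the WT pair and 13.5 and 19.9 in the CfzR pair (log2 fold change 0.55, adjusted p = 0.454), and WARS2 was at the other end (-0.27, adjusted p = 0.655). None of the 14 genes for transcribing and copying mitochondrial DNA passed (median -0.06), and 1 in each direction had an unadjusted p under 0.05. TWNK had the lowest log2 fold change of these (above) and MTERF1, a transcription termination factor, the highest, at 3.25 and 2.94 FPKM in the WT pair and 5.98 and 3.85 in CfzR (0.51, adjusted p = 0.503). Of 7 measured transcription factors and coactivators linked to mitochondrial biogenesis 0 passed and 1, PPRC1, had an unadjusted p under 0.05. This coactivator stood at 12.5 in both WT libraries and 8.05 and 6.88 FPKM in the CfzR pair (log2 fold change -0.68, SE 0.20, adjusted p = 0.279), while GABPA, an ETS-family factor, had the highest value (0.23, adjusted p = 0.690).

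The 2 mitochondrial rRNAs are not polyadenylated like nuclear mRNAs, so their level in libraries from an mRNA protocol is uncertain. MT-RNR1, of the small subunit, stood at 1365 and 1244 FPKM in the WT pair and 705 and 668 in the CfzR pair (log2 fold change -0.92, SE 0.30, adjusted p = 0.323), and MT-RNR2, of the large subunit, at 3820 and 3001 against 1995 and 2546 (log2 fold change -0.59, adjusted p = 0.595). In both the groups did not overlap. All 13 mRNAs of mitochondrial DNA had negative log2 fold changes (median -0.60), against 52.9% of all genes tested. Of these mRNAs 0 passed, with 0 at an unadjusted p under 0.05, against 11.1% of all genes at that p. Their sum was 72299 FPKM in WT replicate 1 and 36657 in WT replicate 2, against 25421 and 39367 in CfzR, so the sums overlapped and WT replicate 1 stood apart. MT-ATP8 had the lowest (-1.05, adjusted p = 0.564) and MT-ND6 the highest log2 fold change (-0.34, adjusted p = 0.785).

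Cytosolic ribosomal proteins and nuclear genes of the respiratory chain and ATP synthase are set beside the members because they too are mostly short, abundant transcripts. Of 72 cytosolic ribosomal protein genes 71 were negative (median -0.34), with medians of -0.59 in CfzR replicate 1 and -0.09 in CfzR replicate 2. Of 79 respiratory chain and ATP synthase genes 65 were negative (median -0.21), with medians of -0.49 and 0.07. These were taken by symbol, so relatives such as UQCRHL and NDUFC2-KCTD14 are among them. In both sets 0 passed. Among all genes tested, 0.350% passed and 52.9% were negative. The corresponding member medians, over both subunits, were -0.26 for the groups, -0.46 in CfzR replicate 1 and -0.03 in CfzR replicate 2. Median transcript lengths were 1073 bases for the cytosolic ribosomal proteins and 1039 bases for the respiratory chain and ATP synthase genes.

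Promoter windows of RefSeq (GRCh38.p14, 250 bases before to 50 after the start, the first window listed for a gene) were found for 67 of the 75 members. They were read for short motifs of 3 factors known for nuclear genes of mitochondria, on both strands: CCGGAAG for ETS factors such as GABPA, AAGATGGCG for YY1 and GCGCATGCG for NRF1. The ETS motif was in 28 of 67 member windows (41.8%), in 21.1% of the windows of 8379 protein-coding genes tested and in 10.7% of all 27305 windows. The YY1 motif was in 12 (17.9%), against 4.67% and 1.85%. The NRF1 motif was in 3 (4.48%), against 4.18% and 2.10%. The shares of large and small subunit were 40.5% and 44.0% for the ETS motif. Of the 17 matched members that were lower in both CfzR libraries under the 4 settings, 10 held the ETS motif and 3 the YY1 motif, against 18 and 9 of the 50 other members. A match is a description of the sequence and not evidence of binding.

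The 120 bases upstream of the start are shown for 3 members that were lower in both CfzR libraries and held an ETS match there (MRPS18A, MRPS21, MRPS10) and for MRPS31, which was higher in both. Capitals mark the match, which is the reverse complement of the motif in MRPS21, where a further match begins at base 8 after the start. They lie at chr6:43687792-43687911 (minus strand), chr1:150293741-150293860 (plus), chr6:42217862-42217981 (minus) and chr13:40771191-40771310 (minus) in that order, and each is written 5′ to 3′ on the gene's strand.
MRPS18A: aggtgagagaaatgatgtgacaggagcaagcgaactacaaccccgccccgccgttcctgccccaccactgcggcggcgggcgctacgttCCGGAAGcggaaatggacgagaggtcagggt
MRPS21: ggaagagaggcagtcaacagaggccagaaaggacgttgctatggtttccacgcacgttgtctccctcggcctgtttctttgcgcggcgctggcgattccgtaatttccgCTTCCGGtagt
MRPS10: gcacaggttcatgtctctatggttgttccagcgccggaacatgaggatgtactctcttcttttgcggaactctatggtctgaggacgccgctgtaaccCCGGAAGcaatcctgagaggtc
MRPS31: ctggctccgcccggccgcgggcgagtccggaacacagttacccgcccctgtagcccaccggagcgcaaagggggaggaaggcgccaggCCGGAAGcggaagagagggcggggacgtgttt

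The match begins 31, 11, 22 and 32 bases before the start in these 4 windows, so the gene that was higher carries it at nearly the same place as MRPS18A. The YY1 motif lies just after the start in MRPS18A and MRPS10 (from base 10) and in MRPL38 (from base 7), which were lower. It also lies there in MRPL50 (from base 24), which was higher. So it does in MRPL42 and MRPL46 (from base 9), MRPS30 (14), MRPS24 (20) and MRPL22 (36), which kept neither order under the 4 settings. The 30 bases around the YY1 motif are shown to set a lower beside a higher member. They lie at chr6:43687763-43687792 and chr9:101398576-101398605, both on the minus strand, with the motif in capitals.
MRPS18A: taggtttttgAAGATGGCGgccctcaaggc
MRPL50: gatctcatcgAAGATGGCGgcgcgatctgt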

How the data were processed

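RNA from 4 libraries (2 WT, 2 CfzR) was extracted with TRIzol and sequenced after an mRNA protocol, per the labels' protocols. The authors deposited values for 15201 Ensembl genes, and their unit is assumed here to be FPKM. The tools listed, per the submitters' processing notes, are STAR and Cufflinks. Their versions, the build, the annotation and the use of strand were not given in the sources used here. No gene had a mean below 0.500 FPKM. Steps worth 1 read were sought in the ratio of the 2 WT libraries among 1649 genes with means under 1 FPKM, and none were seen. Genes of still lower level are absent, so this search could miss such steps. Read depth was not recovered and counting errors are left out. Columns named for a control were taken as WT, the only group besides the resistant cells.

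Symbols were matched by ID for 15027 genes. Member status, positions, exon overlap, length and GC share come from GENCODE 29 (GRCh38), using the principal coding transcript where one is tagged and otherwise the longest. They are not the authors' coordinates.

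A filter at a 4-library mean of 1 FPKM kept 13411 genes. CfzR was set against WT on log2(FPKM + 1) with limma 3.58.1 under R 4.3.3 (mean-variance trend, two-sided, Benjamini-Hochberg over all genes tested, threshold 0.05). Fold changes on this scale understate changes of low genes. ± is the SD of FPKM. The fit was run on simulated data with spreads shuffled between genes and planted changes larger than those of the members. That run cannot show whether changes of the members' size would be found. Other settings tried were a pseudocount of 0.1 or 5, a filter at 5 FPKM or none, TMM scaling, quantile normalization, no trend, a replicate block, a length and GC correction (splines with 4 degrees of freedom), leaving out each library, and subunits assigned by structure.

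Members, lists, tests and the rule for named genes were chosen with earlier results of these data known. The rule names, per subunit, the 4 members with the largest positive and negative log2 fold changes, the 3 most and 2 least abundant, the MRPS18 paralogues, MRPL11, MRPL12, MRPL58, and in each list of related genes the 2 extremes. Other genes were named after their values were seen.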

Additional observations from a re-analysis of the deposited data

How the results depend on the processing

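The number of genes past the threshold over the whole table was 47, and it was 27 with a filter at 5 FPKM, 28 after the length and GC correction, 1242 with a replicate block, 20 with the block and the length and GC correction together, and 16 to 260 when 1 library was left out. The cause of these shifts was not tested. Fewer genes entered under the filter (9014) and with the length and GC correction (12896) than in the main setting (13411). The replicate numbers are shared by the groups, but the labels do not say that they pair samples. Differences between replicates 1 and 2 correlated across genes between WT and CfzR (r = 0.252), with only 2 pairs. The block leaves 1 residual degree of freedom. With it, 1 of 48 large-subunit and 5 of 27 small-subunit members passed, where 1242 of the 13411 genes tested did. With the block and the length and GC correction 0 members passed, where 20 of 12896 genes did. Members past the threshold with the block alone were MRPL30 (-0.619), MRPS17 (-0.683), MRPS18A (-0.681), MRPS21 (-0.672), MRPS9 (-0.703) and MRPS36 (0.753). The 2 pairs of MRPS36 differed in direction. It was lower in CfzR in replicate 1 (25.0 against 30.0 FPKM) and higher in replicate 2 (27.3 against 7.35), so its pass is no paired rise. Leaving out 1 library left 0 large-subunit members and 0 to 1 small-subunit members past the threshold, the 1 being MRPS36 without WT replicate 1. In such fits the lone library of a group is assumed to vary like the other group.

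The median log2 fold change ran from -0.467 to 0.00815 for the large and from -0.441 to -0.106 for the small subunit with 1 library left out. The values nearest or above 0 came without CfzR replicate 1. It was -0.0571 and -0.152 after quantile normalization. In the other settings the large subunit lay between -0.251 and -0.167 and the small subunit between -0.304 and -0.243. Without CfzR replicate 1, 24 large-subunit members were higher and 24 lower, against 10 and 38 with all libraries. In the small subunit 19 of 27 were then lower, against 21 with all libraries. Signs also turned in several named members, which had not passed with all libraries. With 1 library left out, log2 fold changes ran from -0.787 to 0.0997 for MRPL11, -0.0172 to 0.408 for MRPL45, -0.753 to 0.145 for MRPL53, -0.110 to 0.465 for MRPS11, -0.441 to 0.00852 for MRPS18C, -0.761 to 0.0223 for MRPS34 and -0.193 to 1.70 for MRPS36. MRPL53 was also at 0.0193 after quantile normalization. Depth is unknown, so its limit on low members such as MRPL45 and MRPL50 cannot be given.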

Other observations

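The table holds 11 rows that share a stem with a member but are pseudogenes or noncoding transcripts, and they entered no comparison above. MRPL20-AS1 was the most abundant, at 26.9 and 28.5 FPKM in the WT pair, then 21.5 and 24.7 in the CfzR pair (replicate 1 first). MRPL36P1 stood at 6.03, 5.02, 3.97 and 7.17 FPKM in the same order, and MRPL45P2 at 3.94, 3.87, 3.36 and 7.77, above its parent MRPL45 in CfzR replicate 2 (2.98). MRPS31P5 stood at 1.87, 2.45, 2.86 and 2.39 FPKM beside MRPS31. MRPL35P3 was listed at 0 in WT replicate 1 and stood at 2.11, 0.702 and 0.601 FPKM in the others. Reads of a pseudogene and its parent can be assigned to either, so these levels and those of the parents carry that uncertainty.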
